A study of Mus musculus with 8 samples.

Results

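Genes of pericytes and vascular smooth muscle, the mural cells that wrap endothelial tubes, were followed in RNA of mouse lung endothelial cells (ECs). The members were 10 of the 54532 genes in the deposited table, matched by symbol: Acta2, Tagln, Myh11, Cnn1 and Actg2 of the contractile apparatus, Des of the muscle intermediate filaments, and Pdgfrb, Cspg4, Rgs5 and Kcnj8 of pericytes. The lungs came from wild-type (WT) C57BL/6J pups, and no group carried an engineered allele. The 4 normoxia libraries came from pups kept in room air (21% O2), and the 4 hyperoxia libraries from pups kept in 80% O2. Both exposures ran from postnatal day 0 to day 14, when the lungs were taken. Lung cells were depleted of CD45-positive leukocytes, and the cells that then bound CD31-coated beads were taken as ECs. The number of pups behind each library is not given in the sources used here, so p-values measure the spread between these libraries, which may be partly technical.

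Mural cells do not form the vessel lining. ECs secrete the growth factor PDGF-B, pericytes carry its receptor, encoded by Pdgfrb, and this pair of proteins draws pericytes onto growing capillaries. Smooth muscle surrounds arteries, veins and airways, and contracts through smooth muscle actin and myosin. The transcription factor SRF with its partner myocardin drives many contractile genes by binding the CArG box, a short element with an A/T-rich centre. In the developing lung, alveolar myofibroblasts also switch on Acta2 and Tagln, so these symbols are not exclusive to vessels. In a bulk isolate, more mural cells, more RNA per mural cell and expression in ECs or other isolated cells cannot be told apart.

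The isolate was endothelial by its markers. The summed level of 18 pan-endothelial genes was 23205 to 24105 CPM (counts scaled to a common library total, after TMM normalization) in normoxia and 22347 to 23367 CPM in hyperoxia. The 10 mural genes summed to 42.8 to 71.6 CPM in normoxia and 94.4 to 155 CPM in hyperoxia. They took 0.00423% to 0.00727% of the counts of the normoxia libraries and 0.00931% to 0.0152% of those of the hyperoxia libraries, so the mural transcripts were a trace in both groups. The libraries held 16098086 to 18300730 counts. In the members, normoxia 1 was often the highest normoxia library and hyperoxia 3 often the lowest hyperoxia library, and the main counts are given with and without both.

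Promoter sequence from RefSeq (GRCm38.p6, covering 250 bases before the start site) was found for 6 of the 10 members, namely Acta2, Cnn1, Des, Cspg4, Rgs5 and Kcnj8, and was searched on both strands for the CArG box. No member held it without deviation. With at most 1 deviating base, 3 of the 6 held a match, against 18.6% of 32851 promoters searched the same way, of which 1.47% held it without deviation. The stretches below are shown because they place the matches of Acta2, which rose most, beside those of a pericyte gene that rose (Cspg4) and one that was not past the test (Kcnj8). Capitals mark the match, and the 2 overlapping matches of Cspg4 are marked together. Both Acta2 stretches lie before the RefSeq start site but overlap an Acta2 exon of the GENCODE M21 annotation. Both also lie outside the span that the files list for Acta2, which ends at 34255336. A match is a likeness of letters and no evidence of binding.
Acta2, chr19:34255438-34255467, minus strand, match from base -84: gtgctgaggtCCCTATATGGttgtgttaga
Acta2, chr19:34255388-34255417, minus strand, match from base -34: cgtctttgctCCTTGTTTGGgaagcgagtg
Cspg4, chr9:56864856-56864885, plus strand, matches from bases -238 and -237: tgtcccaaacCCTTAAAATGGggcatgggt
Kcnj8, chr6:142571641-142571670, minus strand, match from base -46: gagcagcgagCCTTTTAAAGatgtgtgtgc

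Rgs5, the most abundant member, held no match in this window. Its 120 bases before the start site (chr1:169655381-169655500, plus strand) are printed for comparison, in lower case throughout because nothing matched.
Rgs5: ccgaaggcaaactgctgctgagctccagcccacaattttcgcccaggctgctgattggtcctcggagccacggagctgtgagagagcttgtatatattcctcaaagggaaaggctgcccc

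Hyperoxia increased 6 of the 8 members tested, and none of the 8 had a log2 fold change below 0. Acta2, Myh11, Des, Rgs5, Cspg4 and Pdgfrb rose past an adjusted p of 0.05 in edgeR's quasi-likelihood test, each with a log2 fold change above 1, which is more than a doubling. Tagln and Kcnj8 were tested and did not pass. Cnn1 and Actg2 had too few counts for the test and are given as counts. Of all 15564 genes tested, 35.6% passed this adjusted p, 18.5% as higher and 17.1% as lower in hyperoxia, and 5.62% were higher with a log2 fold change of at least 1 as well. Without normoxia 1 and hyperoxia 3, 7 members were higher, the same 6 and Actg2, which the count filter kept in that fit. There 5012 of 15749 genes tested passed in either direction. The pair was chosen after seeing the levels of these members, so the larger count is no support.

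**Figure D1:**
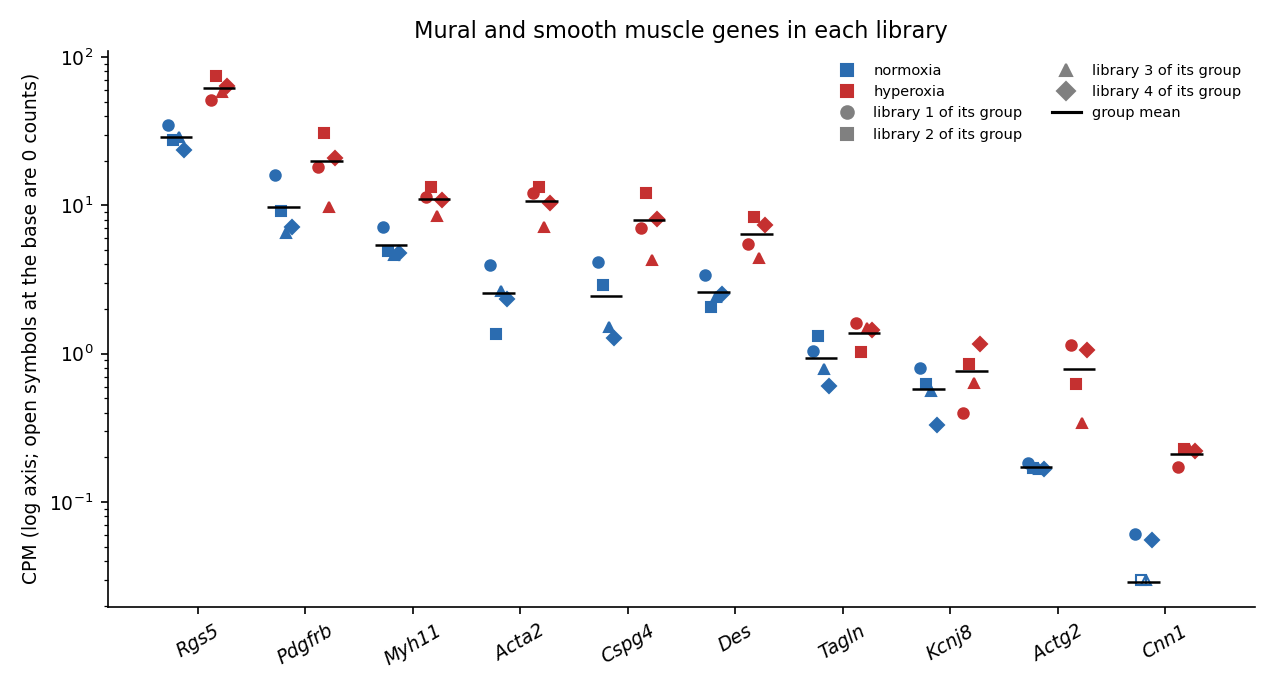
Level of each member in each library, in CPM on a log axis, with normoxia in blue, hyperoxia in red, a symbol shape for the library number and a line at the group mean. Open symbols at the base stand for 0 counts. In 7 of the 10 members every hyperoxia library lies above every normoxia library, and in Pdgfrb, Tagln and Kcnj8 the groups overlap.

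In 7 of the 10 members all 4 hyperoxia libraries lay above all 4 normoxia libraries. Of these 7, 5 were among the 8 members tested. The same separation was found in 17.8% of all genes tested.

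Among the contractile genes, Acta2 encodes smooth muscle alpha-actin (ENSMUSG00000035783, chromosome 19, 34241090 to 34255336, minus strand, as the files list it in GRCm38). Normoxia 1 to 4 held 3.98, 1.37, 2.63 and 2.32 CPM, and hyperoxia 1 to 4 held 12.05, 13.2, 7.15 and 10.4 CPM. The lowest hyperoxia library, hyperoxia 3, was above the highest normoxia library, normoxia 1. The mean rose from 2.57 ± 1.08 to 10.7 ± 2.63 CPM (SD, n = 4 each), a log2 fold change of 2.06 (SE 0.283, edgeR adjusted p = 0.000276) or 4.16-fold. This was the largest change among the 8 tested members in this fit.

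Myh11 encodes the smooth muscle myosin heavy chain (ENSMUSG00000018830, chromosome 16, 14194535 to 14291372, minus strand). The normoxia libraries held 7.10, 4.95, 4.64 and 4.81 CPM of it and the hyperoxia libraries 11.4, 13.3, 8.53 and 10.9 CPM. The groups did not overlap, and normoxia 1 lay apart from the other 3 normoxia libraries, which were nearly level. The log2 fold change was 1.04 (SE 0.174, edgeR adjusted p = 0.000969).

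Myosin and actin transcripts were then compared within the same libraries. On the log2 scale, the ratio of Myh11 to Acta2 counts averaged 1.13 ± 0.482 over the normoxia libraries and 0.06 ± 0.140 over the hyperoxia libraries (SD, n = 4 each), a difference of -1.07. All 4 hyperoxia libraries lay below all 4 normoxia libraries, which gave an exact two-sided permutation p of 0.0286, the smallest that 4 against 4 libraries allow, and 0.0714 after Benjamini-Hochberg adjustment over the 5 ratios compared. The difference therefore did not pass the correction.

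Tagln encodes transgelin, an actin-binding protein of smooth muscle (ENSMUSG00000032085, chromosome 9, 45929619 to 45936058, minus strand). It was scarce, with 1.04, 1.31, 0.783 and 0.608 CPM in the normoxia libraries and 1.60, 1.02, 1.49 and 1.44 CPM in the hyperoxia libraries. Hyperoxia 2 lay below normoxia 1 and normoxia 2, so the groups overlapped. Its log2 fold change of 0.57 (SE 0.287, edgeR adjusted p = 0.149) was not past the threshold. In the annotation 62.4% of its exon bases lie opposite the antisense gene Gm48529, which had means of 1.92 ± 0.284 and 2.31 ± 0.607 CPM (SD, n = 4 each, edgeR adjusted p = 0.432) in the same order, and 5.43% lie opposite Pcsk7. The use of strand in the counting is not given in the sources used here. Reads that lie in the bases shared by Tagln and Gm48529 therefore cannot be told apart.

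Actg2 encodes the enteric smooth muscle gamma-actin (ENSMUSG00000059430, chromosome 6, 83512905 to 83536265, minus strand). It had 3 counts in each of the 4 normoxia libraries and 20, 11, 6 and 19 counts in hyperoxia 1 to 4. Every hyperoxia library was higher. Summed over the libraries these were 12 and 56 counts, a ratio of 4.61 per library size, with an exact 95% interval of 2.45 to 9.46 that covers counting error only. With no filter on low counts, edgeR gave a log2 fold change of 2.17 (adjusted p = 0.00334).

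Cnn1 encodes calponin, a regulator of smooth muscle contraction (ENSMUSG00000001349, chromosome 9, 22099216 to 22109630, plus strand), and it was the scarcest member. It had 1, 0, 0 and 1 counts in normoxia and 3, 4, 4 and 4 counts in hyperoxia. The totals of 2 and 15 counts gave a ratio of 7.42 with an exact 95% interval of 1.72 to 66.8, again for counting error only. With no filter its adjusted p was 0.0578 in edgeR and 0.00552 in limma on log2 FPKM with a pseudocount of 0.1.

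Des encodes desmin, the intermediate filament protein of muscle and of pericytes (ENSMUSG00000026208, chromosome 1, 75360329 to 75368579, plus strand). Normoxia 1 to 4 held 3.37, 2.05, 2.41 and 2.54 CPM of Des, and hyperoxia 1 to 4 held 5.48, 8.33, 4.41 and 7.32 CPM. The groups did not overlap. The log2 fold change was 1.30 (SE 0.229, edgeR adjusted p = 0.00132). Exon bases of Des lie opposite Gm15179 over 5.86%, and that gene had no count in any library.

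Turning to the pericyte genes, Rgs5 encodes a regulator of G-protein signalling that is abundant in pericytes (ENSMUSG00000026678, chromosome 1, 169655501 to 169695813, plus strand). The 4 normoxia libraries held 34.9, 27.5, 28.9 and 23.5 CPM, while the 4 hyperoxia libraries held 50.9, 74.4, 57.6 and 64.1 CPM. Here hyperoxia 1, not hyperoxia 3, was the lowest hyperoxia library, and it was well above normoxia 1. The mean rose from 28.7 ± 4.71 to 61.7 ± 9.998 CPM (SD, n = 4 each), a log2 fold change of 1.11 (SE 0.132, edgeR adjusted p = 0.000109).

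Cspg4 encodes the proteoglycan NG2 of the pericyte surface (ENSMUSG00000032911, chromosome 9, 56865033 to 56899870, plus strand). The values were 4.16, 2.90, 1.51 and 1.27 CPM in the normoxia libraries, against 7.02, 12.2, 4.29 and 8.10 CPM in the hyperoxia libraries. The groups were separate by a narrow gap, since hyperoxia 3 was just above normoxia 1. The log2 fold change was 1.69 (SE 0.389, edgeR adjusted p = 0.00633).

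Pdgfrb encodes the PDGF-B receptor (ENSMUSG00000024620, chromosome 18, plus strand). It varied more within groups, with 16.04, 9.10, 6.55 and 7.18 CPM in normoxia 1 to 4 and 18.2, 30.8, 9.73 and 20.7 CPM in hyperoxia 1 to 4. Normoxia 1 lay above hyperoxia 3, so the groups overlapped. Its log2 fold change of 1.04 (SE 0.347, edgeR adjusted p = 0.0386) was just past the threshold. DESeq2 gave an adjusted p of 0.0534, and leaving out normoxia 2, 3 or 4 or hyperoxia 1, 2 or 4 gave 0.0875, 0.0932, 0.103, 0.0514, 0.123 and 0.0713. Without normoxia 1 and hyperoxia 3 together the log2 fold change was 1.61 (edgeR adjusted p = 0.000537). These libraries hold the highest normoxia and the lowest hyperoxia value of Pdgfrb, so leaving them out widens the difference by construction. That value is no support for the call.

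Kcnj8 encodes the pore-forming subunit of the vascular ATP-sensitive potassium channel (ENSMUSG00000030247, chromosome 6, 142564837 to 142571614, minus strand). Normoxia 1 to 4 held 0.796, 0.626, 0.559 and 0.331 CPM, and hyperoxia 1 to 4 held 0.400, 0.850, 0.630 and 1.16 CPM. Hyperoxia 1 lay below normoxia 1, 2 and 3, so the groups overlapped, and the log2 fold change of 0.40 (SE 0.390) had an edgeR adjusted p of 0.458. Abcc9, which encodes the regulatory subunit of the same channel, had a log2 fold change of 0.37 (adjusted p = 0.406). Kcnj8 had 6 to 21 counts a library, and its SE of 0.390 was larger than that of Rgs5 (0.132).

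The counts of Acta2 were also set against those of Pdgfrb within each library. The log2 value of this ratio averaged -1.91 ± 0.606 over the normoxia libraries and -0.81 ± 0.360 over the hyperoxia libraries (SD, n = 4 each), a difference of 1.10 without overlap between the groups (exact permutation p = 0.0286, adjusted 0.0714). Rgs5 relative to Pdgfrb differed by 0.10 (exact permutation p = 0.8, adjusted 0.8). The other 2 ratios, Kcnj8 to Pdgfrb (difference -0.66, adjusted p = 0.381 in the exact permutation test) and Actg2 to Acta2 (difference -0.21, adjusted p = 0.75), had overlapping groups. None of the 5 ratios passed the correction.

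Levels of different genes were compared as FPKM, which takes gene length into account. In normoxia Rgs5 led at 6.27 ± 1.04 FPKM, and below it came Pdgfrb at 1.76 ± 0.793, Acta2 at 1.43 ± 0.607, Myh11 at 0.702 ± 0.153 and Des at 0.685 ± 0.1497 FPKM (SD, n = 4). Only Rgs5 and Pdgfrb, and the last pair, Actg2 and Cnn1, were neighbours with ranges that did not overlap. In hyperoxia Rgs5 stood at 13.5 ± 2.21 FPKM, and Acta2 was next at 5.97 ± 1.47 FPKM, followed by Pdgfrb at 3.61 ± 1.58 FPKM with an overlapping range (SD, n = 4). Rgs5 and Acta2, Myh11 and Tagln, and Kcnj8 and Cnn1 were the neighbours with separate ranges there. Tagln, Cspg4, Actg2, Kcnj8 and Cnn1 had mean levels below 1 FPKM in both groups.

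**Figure D2:**
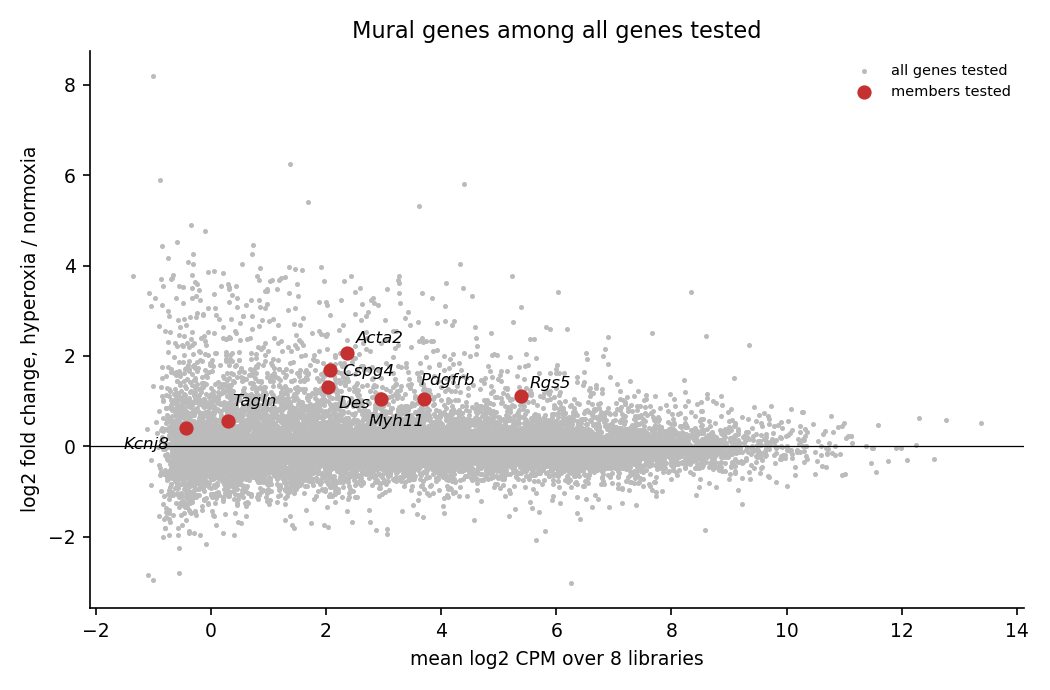
Log2 fold change of each of the 15564 genes tested against its mean log2 CPM over 8 libraries, with the 8 tested members in red. Acta2, Cspg4, Des, Rgs5, Myh11 and Pdgfrb lie above 1 on the log2 scale, and Tagln and Kcnj8, the most weakly expressed of the 8, lie lower.

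Normoxia 1 and hyperoxia 3 shaped the spread of these genes. Normoxia 1 was the highest normoxia library in 9 of the 10 members, and hyperoxia 3 was the lowest hyperoxia library in 6. Among the 8 members tested these counts were 7 and 5, against shares of 24.4% and 27.8% over all genes tested. The size of the displacement differed among members. In Pdgfrb, Cspg4 and Acta2, hyperoxia 3 held 41.9%, 47.2% and 60.3% of the mean of the other 3 hyperoxia libraries, and normoxia 1 held 211%, 220% and 189% of the mean of the other 3 normoxia libraries. In Rgs5 these values were 91.3% and 131%, and in Tagln 110% and 116%. Hyperoxia 2 was the highest hyperoxia library in 6 members.

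Markers of other cells were followed in the same libraries. Their counts stand beside 18.5% higher and 17.1% lower over all genes tested. All 13 tested markers of alveolar type 2 (AT2) cells rose, and their summed level was 304 to 454 CPM in normoxia and 948 to 2851 CPM in hyperoxia. Their level in hyperoxia 3 was 35.3% of the mean of the other 3 hyperoxia libraries. Of 16 tested fibroblast genes 7 rose and 1 fell, and their summed level was 485 to 728 CPM in normoxia and 536 to 1063 CPM in hyperoxia, with hyperoxia 3 at 56.3% and normoxia 1 at 139% of the other libraries of their group. Of 14 alveolar type 1 markers 10 rose and 2 fell. Their summed level did not rise, at 3993 to 4392 CPM in normoxia and 3837 to 4327 CPM in hyperoxia, which overlapped. Myeloid markers, with 2 of 12 higher and 1 lower, were near the 18.5% and below the 17.1% over all genes tested. Lymphocyte markers summed to 48.7 to 116 CPM in the normoxia and 62.4 to 100.1 CPM in the hyperoxia libraries, which overlapped, and of 9 platelet and erythroid markers 1 rose and 4 fell. All 3 tested mast cell markers and 2 of 3 tested mesothelial markers rose, at summed levels of 4.35 to 10.1 and 5.15 to 14.7 CPM in hyperoxia. In the myeloid, lymphocyte, and platelet and erythroid sums, hyperoxia 3 stood at 52.7%, 77.5% and 75.9% of the other 3 hyperoxia libraries. In the mast cell and mesothelial sums it stood at 58.6% and 40.8%. In the alveolar type 1, striated muscle and pan-endothelial sums it stood at 92.0%, 122% and 102%. A low level in hyperoxia 3 was therefore not particular to fibroblast and AT2 genes. The part of these other cells in the levels of Acta2, Pdgfrb and the other members was not tested.

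Striated muscle transcripts were scarce. Myl3, Sln and Myh4 had no count in any library. Of 6 tested genes of that list 2 rose and 1 fell, against 18.5% higher and 17.1% lower over all genes tested. Counts this small are no result about that list. The list summed to 21.2 to 27.5 CPM in the normoxia libraries and to 36.7 to 51.1 CPM in the hyperoxia libraries, without overlap. Acta1, the skeletal muscle actin, averaged 2.32 ± 0.801 CPM over the normoxia and 1.33 ± 0.695 CPM over the hyperoxia libraries (SD, n = 4 each, edgeR adjusted p = 0.112), which is -0.80 on the log2 scale. Without normoxia 1 and hyperoxia 3 that value was -1.39 (edgeR adjusted p = 0.00553). That exclusion was chosen after seeing the data, so the value is no support for a fall. Leaving out hyperoxia 3 alone gave -1.22 (edgeR adjusted p = 0.0156). Leaving out any other single library gave edgeR adjusted p-values of 0.0637 to 0.283. The cytoplasmic actins Actb and Actg1, which every cell uses, rose, with log2 fold changes of 0.49 (adjusted p = 2.09e-05) and 0.33 (adjusted p = 0.00046). Windows of 150 bases of Acta2 and Actg2 transcripts were found in no other gene of the annotation.

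**Figure D3:**
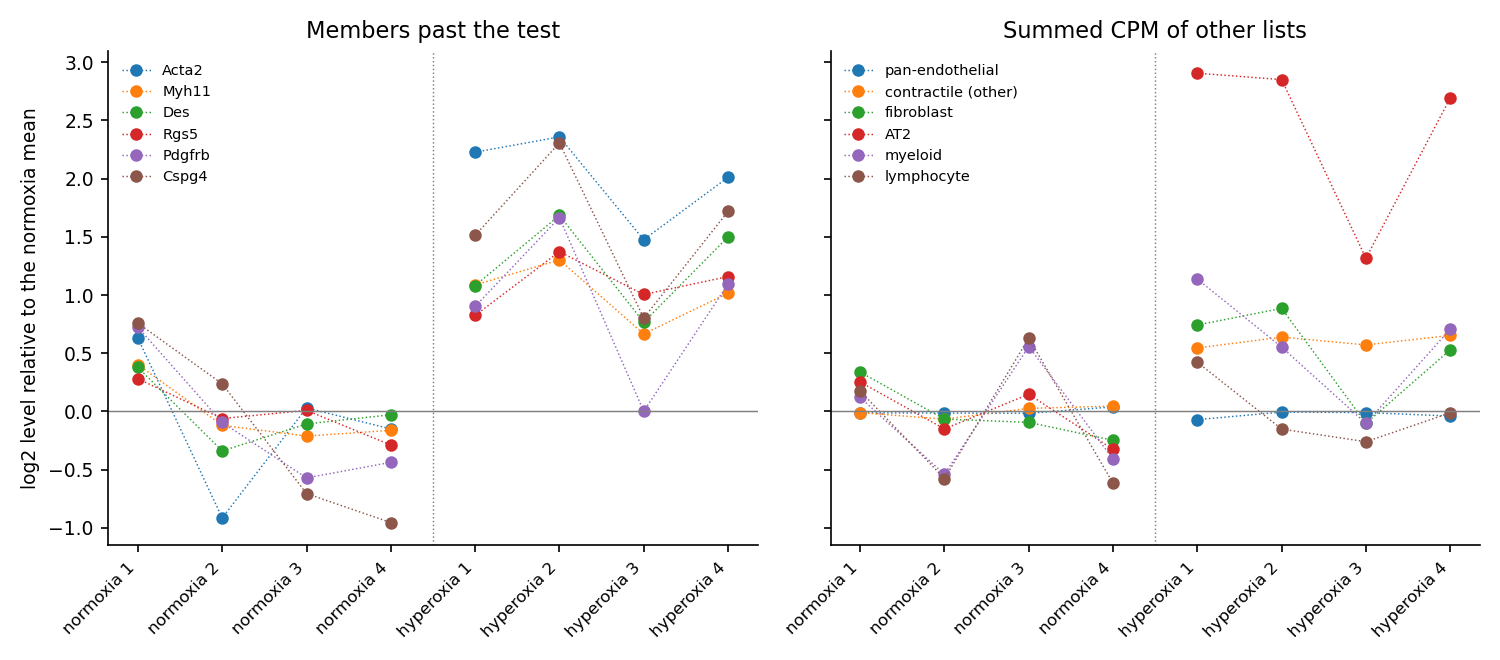
Log2 level in each library relative to the normoxia mean, for the 6 members past the test on the left and for the summed CPM of 6 other gene lists on the right. Dotted lines only join the libraries of a group, which have no order. Normoxia 1 is the highest normoxia library in each of the 6 members. The fibroblast, AT2, myeloid and lymphocyte sums are lowest in hyperoxia 3 within their group, and the pan-endothelial and contractile sums are not.

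**Figure D4:**
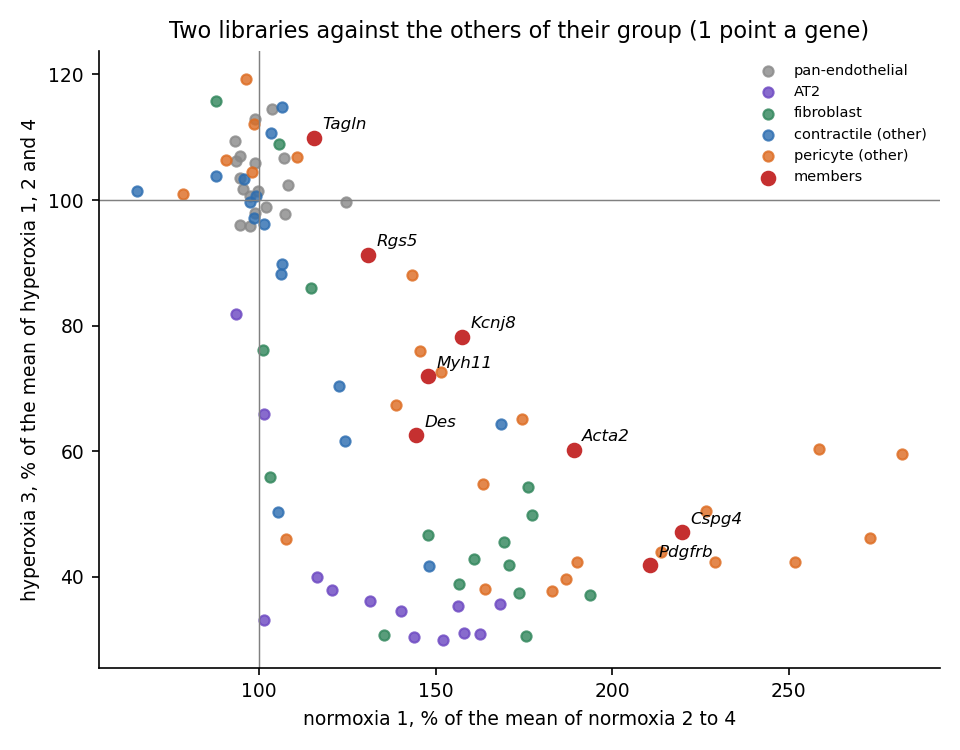
Level of each gene in hyperoxia 3, as a percent of the mean of hyperoxia 1, 2 and 4, against its level in normoxia 1, as a percent of the mean of normoxia 2 to 4, with 1 point a gene. Pan-endothelial genes gather near 100% on both axes, whereas Cspg4 and Pdgfrb lie at 220% and 211% on the horizontal axis and at 47.2% and 41.9% on the vertical axis.

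Most other genes of the contractile apparatus rose as well. Of 16 tested genes of that list 12 rose and 4 did not pass the test, among them Mustn1 and Synm with negative log2 fold changes (-0.25 and -0.21, adjusted p = 0.0562 and 0.0527 in edgeR). Over the 16 genes the median log2 fold change was 0.59, against -0.00400 over all genes tested, of which 18.5% were higher. With a log2 fold change of at least 1 as well, 2 of the 16 were higher, against 5.62% of all genes tested. The rise was not particular to this list. Of 12 tested general cytoskeleton genes 10 rose and 1 fell, with a median log2 fold change of 0.48. The most abundant ones were already strongly expressed in normoxia. Csrp1, which encodes an actin-bundling LIM protein, went from 333 ± 21.1 to 490 ± 14.6 CPM, Cald1, which encodes caldesmon, from 175 ± 10.2 to 332 ± 25.6 CPM, and Mylk, the myosin light chain kinase gene, from 171 ± 8.36 to 255 ± 6.94 CPM (SD, n = 4 each). Their log2 fold changes were 0.56, 0.92 and 0.58, with adjusted p-values of 2.22e-05, 2.77e-06 and 7.36e-06 in edgeR. Many cells, ECs included, express these 3 genes. The largest changes were in scarce genes, namely Synpo2, which encodes an actin-associated protein, from 0.681 ± 0.307 to 2.11 ± 0.505 CPM, up by 1.63 on the log2 scale, and Tpm2, which encodes beta-tropomyosin, from 1.58 ± 0.529 to 3.69 ± 0.610 CPM, up by 1.22. The list summed to 1219 to 1318 CPM in the normoxia libraries and to 1863 to 2008 CPM in the hyperoxia libraries. In this sum, to which Csrp1, Cald1 and Mylk contribute most, hyperoxia 3 stood at 97.2% and normoxia 1 at 99.1% of the others of their group. Scarce genes of the list lay further off, with hyperoxia 3 at 64.3% and normoxia 1 at 169% in Synpo2, and at 70.4% and 123% in Tpm2.

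Of 24 other pericyte genes tested, 14 rose and 2 fell, with a median log2 fold change of 0.86. The shares over all genes tested were 18.5% higher and 17.1% lower, so the count of lower genes is below that share. Trpc6, a calcium-permeable channel gene, had means of 1.36 ± 0.850 CPM and 6.64 ± 1.59 CPM and rose by 2.30 on the log2 scale (adjusted p = 0.000449). Postn, which encodes the matrix protein periostin, had means of 20.5 ± 12.4 CPM and 60.5 ± 23.5 CPM and rose by 1.57 (adjusted p = 0.00751), with overlapping groups. The 3 most abundant genes of the list are each also known from ECs, and 2 of them fell. Itga1, an integrin gene, dropped from 657 ± 47.8 CPM to 395 ± 33.7 CPM, which is -0.73 on the log2 scale, and Gja4, the connexin gene of arterial ECs, dropped from 194 ± 10.2 CPM to 114 ± 5.31 CPM, which is -0.77. Mcam, the CD146 gene, rose by 0.23 on the log2 scale (adjusted p = 0.0266). The call on Mcam was lost without normoxia 1, normoxia 3, hyperoxia 2 or hyperoxia 3, with adjusted p-values of 0.0611, 0.0669, 0.0770 and 0.0665. SDs are over 4 libraries. The count of 14 was 8 without normoxia 3 or without hyperoxia 2, 9 without normoxia 4 or without hyperoxia 4, and 16 without normoxia 1 and hyperoxia 3. That last exclusion was chosen after seeing the data. In these fits, in the order given, 5445, 4526, 4791, 4680 and 5012 of all genes tested passed in either direction.

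**Figure D5:**
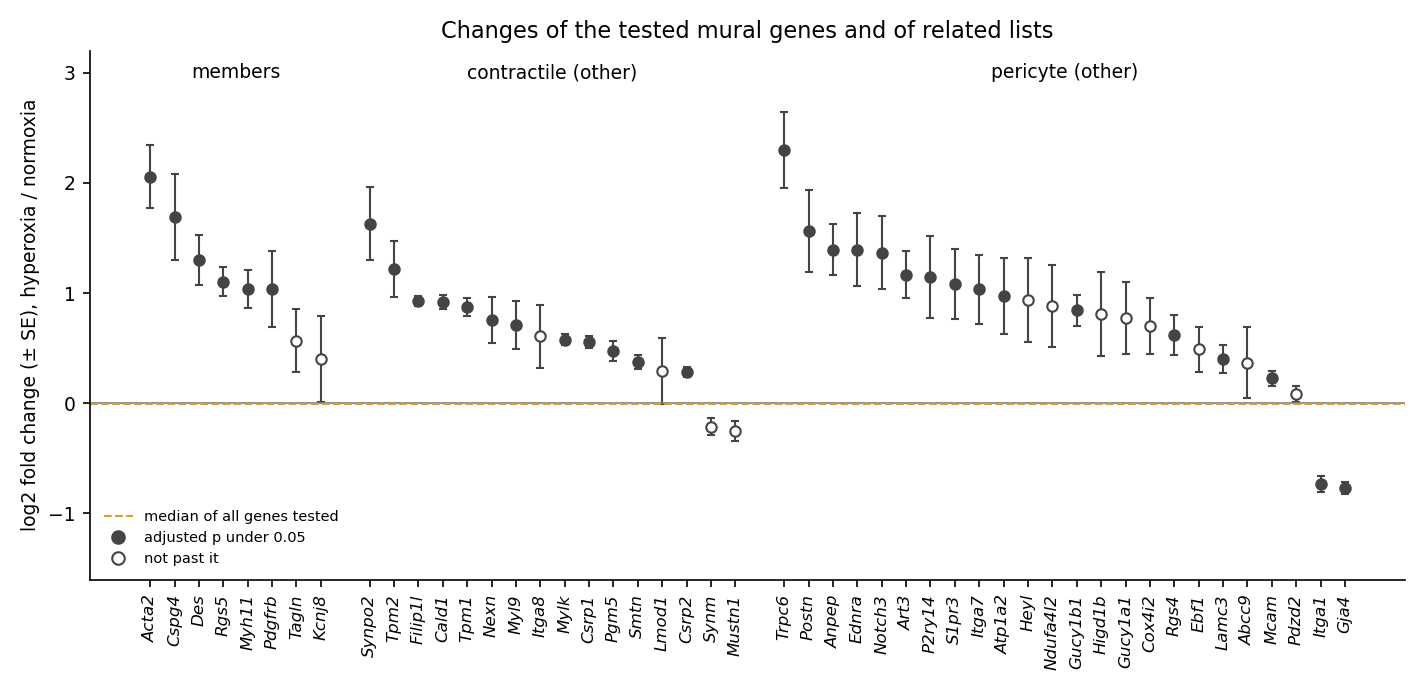
Log2 fold change of hyperoxia over normoxia for the tested members and for the tested genes of the contractile and pericyte lists. Bars are standard errors, filled points passed an adjusted p of 0.05, open points did not, and a dashed line marks the median of all genes tested. Acta2 (2.06) and Trpc6 (2.30) lead the members and the pericyte list, and Itga1 and Gja4 lie below 0.

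Of 15 tested genes for transcription factors of mural cells 4 rose and 2 fell, with a median log2 fold change of 0.09. The shares for all genes tested were 18.5% higher and 17.1% lower, so the counts are no result about these factors. Srf stood at 95.4 ± 5.73 and 95.2 ± 6.32 CPM (adjusted p = 0.962), and its partner gene Myocd had too few counts to be tested, with means of 0.0291 and 0.113 CPM. Tbx5 and Tbx4, which encode T-box factors of lung mesenchyme, rose with log2 fold changes of 1.44 (adjusted p = 0.013) and 1.11 (adjusted p = 0.0119). Elk3, an ETS factor gene expressed in ECs, dropped from 525 ± 25.1 CPM to 413 ± 17.3 CPM, which is -0.35 on the log2 scale. Foxf1 and Klf4, the most abundant of the list, were not past the test, with log2 fold changes of -0.08 and 0.11.

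Ligands and receptors that link ECs to mural cells were followed next. Of 18 tested genes 11 rose and 3 fell, against 18.5% higher and 17.1% lower over all genes tested. The count of lower genes is near that share. Pdgfb, the ligand gene for Pdgfrb, averaged 434 ± 40.5 CPM in normoxia against 546 ± 19.9 CPM in hyperoxia and rose by 0.33 on the log2 scale (SE 0.0649, edgeR adjusted p = 0.00262), and the groups did not overlap. Tgfb2, a ligand gene of smooth muscle differentiation, rose by 1.53, with means of 17.3 ± 1.69 and 50.02 ± 4.76 CPM. Eng, the endoglin gene, and S1pr1, a sphingosine phosphate receptor gene, both abundant in ECs, rose with log2 fold changes of 0.43 and 0.69. Tek, which encodes the angiopoietin receptor TIE2, dropped from 1182 ± 68.2 CPM to 682 ± 49.8 CPM, which is -0.79, and Hbegf, which encodes a growth factor of the EGF family, dropped from 85.6 ± 12.1 CPM to 31.4 ± 1.62 CPM, which is -1.45. SDs are over 4 libraries, and the adjusted p-values of these last 5 genes ran from 9.18e-07 to 2.47e-05. Srf, Myocd and Pdgfb were chosen for their known roles after their values were seen.

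Of 11 tested genes of the lung myofibroblast list 9 rose and 1 fell, with a median log2 fold change of 1.23. The shares over all genes tested were 18.5% higher and 17.1% lower. Aspn, which encodes the matrix protein asporin, had means of 1.87 ± 1.09 and 6.94 ± 2.28 CPM and rose by 1.90 on the log2 scale (SD, n = 4 each, edgeR adjusted p = 0.00252). In Aspn, hyperoxia 3 stood at 46.4% and normoxia 1 at 254% of the others of their group, a displacement in the same direction as in Pdgfrb. Among the fibroblast genes the largest change was that of Col1a1, a collagen I gene, with means of 24.4 ± 6.69 and 71.2 ± 25.6 CPM and a rise of 1.55 on the log2 scale (adjusted p = 0.00134).

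The profiles most like Acta2 and Pdgfrb over the 8 libraries were found by the root mean square difference of log2 CPM, each gene centred on its own mean, among the 10415 genes that code for proteins and had a mean of 5 CPM or more. Nearest to Acta2 were Dcxr (0.272), Col6a2 (0.292), Loxl3 (0.300), Col4a5 (0.301) and Cryab (0.302), against a median of 1.13 over the genes compared. Nearest to Pdgfrb were Gucy1a1 (0.145), Ltbp2 (0.176), Npnt (0.184), Sdc2 (0.204) and Col1a2 (0.209), against a median of 0.760. Gucy1a1, a subunit of the nitric oxide receptor found in pericytes, had means of 14.6 ± 7.34 CPM and 24.9 ± 8.57 CPM in the normoxia and hyperoxia libraries and was not past the test (adjusted p = 0.0894). The 5 genes nearest to Acta2 had log2 fold changes of 1.96 to 2.39. These distances are a description of 8 libraries that share the 2 exposure groups.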

How the data were processed

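The authors deposited 1 table of raw gene counts and 1 of FPKM values, which divide a count by gene length and library total, for the same 8 libraries. The submitters' processing notes name HISAT2 2.0.5, featureCounts 1.5.0-p3 and build mm10. The strand setting and the treatment of reads shared by genes are not given in the sources used here. Groups came from the treatment labels, and the counts were used as deposited.

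Counts were tested with edgeR 4.0.16 in R 4.3.3 (TMM, filterByExpr at its defaults, quasi-likelihood, group as the only term). P-values were Benjamini-Hochberg adjusted over all 15564 genes kept, with 99.8% or more of every library's counts. The SE follows from the F statistic, and CPM uses TMM-scaled library sizes. Ratios of counts took a pseudocount of 0.5 and an exact two-sided permutation test (SciPy 1.17.1). DESeq2 1.42.0, limma 3.58.1 (voom and log2 FPKM) and other scalings and filters were alternatives. The edgeR and permutation steps were tested on simulated data.

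The members and gene lists were chosen with earlier results of these data known. The named-gene rule took, from each related list, the 3 most abundant genes tested and the 2 largest changes past the threshold with at least 1 CPM, and the 5 nearest profiles. Lists of other cell types, and most genes the rule gave for the myofibroblast and fibroblast lists, are given as counts or sums only. Exon overlaps and 150-base windows were taken from GENCODE M21, where 98.3% of the file's genes with an identifier there had the same coordinates. Same-numbered libraries of the groups are not paired by the labels.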

Additional observations from a re-analysis of the deposited data

Results flagged for a closer look

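In groups of 4 libraries a library was taken up when its gap to the nearest other library took up more of the group's range than chance allows in about 1 of 20 groups. Of 68 groups checked, 3 met this, against 3.4 by chance. Myh11 in normoxia 1 stood at 7.10 CPM, with the other 3 normoxia libraries at 4.64 to 4.95 CPM. Cnn1 in hyperoxia 1 stood at 0.171 CPM, with the others at 0.222 to 0.229 CPM, a difference of 3 against 4 counts. The summed level of the pan-endothelial genes in normoxia 4 was 24105 CPM, with the others at 23205 to 23270 CPM.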

How the results depend on the processing

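Acta2, Myh11, Des, Rgs5 and Cspg4 stayed higher and past an adjusted p of 0.05 under all 21 alternatives, with log2 fold changes of 1.52 to 2.49, 0.52 to 1.30, 0.66 to 1.59, 0.996 to 1.24 and 0.45 to 2.26. The lowest values came from log2 FPKM with a pseudocount of 1, which shrinks changes of scarce genes by construction. The call on Pdgfrb was lost under 11 of the 21 (log2 fold change 0.71 to 1.61 over all). Tagln was past the threshold under none of the 21 and Kcnj8 under none of the 20 that gave it a value. The exclusion of normoxia 1 and hyperoxia 3 together was chosen after seeing the data, in which both were often the extremes of the members. It widens the differences of such members by construction.

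The number of members higher was 5 to 7 when single libraries were left out, and 4 to 7 with the minimum fold change. These counts are not all of the same 8 members tested. Actg2 entered the test and passed it without normoxia 1, 2, 3 or 4 or hyperoxia 3. Without normoxia 2, 3 or 4 it stood in place of Pdgfrb, which did not pass. With single libraries left out, 4526 to 5445 of all genes tested passed in either direction. With the minimum fold change it was 1 on log2 FPKM with a pseudocount of 1. The contractile list held 11 to 13 higher genes and the pericyte list 8 to 16 with single libraries left out. The pericyte list held 8 on log2 FPKM with a pseudocount of 0.1, 8 with a pseudocount of 1, and 5 with a pseudocount of 0.1 and no filter. With single libraries left out, the difference in log2 ratio was 0.83 to 1.30 for Acta2 to Pdgfrb, -1.17 to -0.83 for Myh11 to Acta2, -0.91 to -0.41 for Kcnj8 to Pdgfrb, -0.42 to 0.05 for Actg2 to Acta2 and -0.18 to 0.26 for Rgs5 to Pdgfrb. The last 2 turned in sign, Actg2 to Acta2 without normoxia 2 (0.052) and Rgs5 to Pdgfrb without normoxia 1 (-0.08) or hyperoxia 3 (-0.18). Limch1, a fibroblast-list gene at 0.03, turned to -0.02 without normoxia 3 and -0.049 without hyperoxia 2, and Cdh5 went from -0.03 to 7.07e-05 when libraries were scaled to the pan-endothelial sum. None of these was past a threshold, and the cause was not tested.

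The replicate number used as a block left 6 members higher and 4792 genes past the adjusted p, against 5535 without it. Same-numbered libraries had correlations of deviations of 0.12, 0.04, -0.13 and -0.14, and not every library correlated best with its own number. Cnn1, Actg2 and Kcnj8 had at most 21 counts in a library, and their values rest on few reads.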
